A study of Mus musculus with 4 samples.

Results

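The 49 genes described here encode proteins of the sarcomere and of striated muscle: myosin heavy and light chains, troponins, actins, tropomyosins, filament and Z-disc proteins, calcium-handling proteins, muscle enzymes and 2 myogenic factors. They were chosen by name from earlier results on the same 4 arrays, in which fast muscle genes had stood out on 1 array, so every value below is a description and no test was made on it. All 49 were represented on the array, by 72 of its 39429 probes, and 14 genes had more than 1 probe. The array carried 30222 gene names in all. Where a gene had several probes, the brightest by mean log2 level stands for it unless another is named.

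Striated muscle contracts when myosin heads on thick filaments pull on actin in thin filaments, and calcium permits this through the troponin complex (a calcium-binding C, an inhibitory I and a tropomyosin-binding T subunit). Fast fibres, slow fibres and heart muscle use different genes for the same part, and embryonic and neonatal myosins precede the adult ones or return in regenerating fibres. The spinal cord itself holds no striated muscle, although muscle lies against the vertebral column from which it is dissected, and several of these genes are also known from other tissues.

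The RNA came from slices of the lumbar spinal cord at segments L4 and L5. The mice were males of the outbred ICR strain, 5 to 6 weeks old when the experiment began. All mice had partial ligation of the right sciatic nerve (PSL), a model of neuropathic pain, and were examined on day 7 after it. In ADX+PSL mice the adrenal glands had been removed and saline was given to drink, whereas in sham+PSL mice the adrenals were exposed and left in place. RNA was taken at ZT10, when glucocorticoids peak in sham+PSL mice, or at ZT22, when they decline (ZT, hours after lights on). The number of mice behind each RNA and the side of the cord were not given in the sources used here.

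Each of the 4 conditions had 1 array, and all 4 arrays lay on 1 slide, so a difference between conditions has no replicate check. The error given is that of a spot, as the scanner software models it. For a log2 ratio of probes well above background on both arrays, its median was 0.20 over all probes and between 0.22 and 0.24 over member probes, and it contains no difference between mice. Of all probes, 65.1 to 70.1% were well above background, the software's flag for a signal clear of the local background, and no spot was saturated. Levels are the authors' normalized intensities on a linear scale, with a median of 105 on every array, and levels of different probes cannot be compared. The lowest level flagged well above background was between 12.8 and 22.2, depending on the array. A list of 14 genes of neurons, glia and lumbar position was well above background on every array, and none of them passed the limits defined below in any comparison.

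Of the 49 genes, 31 were well above background on all 4 arrays, 5 on 2 or 3 arrays (*Ckmt2*, *Mybph*, *Tnni3*, *Tnnt3* and *Ttn*), 6 on 1 array (*Actc1*, *Ckm*, *Myh4*, *Myl7*, *Myoz1* and *Tnnt2*) and 7 on none (*Des*, *Myh1*, *Myh2*, *Mylpf*, *Myod1*, *Myog* and *Myot*). In sham+PSL, 39 were well above background at ZT10 and 34 at ZT22, and in ADX+PSL, 38 and 32 were. On the same arrays in that order, 68.7, 66.9, 70.1 and 65.1% of all probes were. The lowest level so flagged on each was 14.9, 18.4, 12.8 and 22.2. Among the 42 genes detected on any array, 22 were highest on the sham+PSL ZT10 array and 6 on the sham+PSL ZT22 array. On the ADX+PSL ZT10 and ZT22 arrays, 10 and 4 were highest. *Ckm*, *Myh4* and *Myoz1* were detected on the sham+PSL ZT10 array alone, and *Actc1*, *Myl7* and *Tnnt2* on the ADX+PSL ZT10 array alone. Their detection and their highest level thus rest on the same array. The genes were chosen with these levels known. Counts of genes highest on an array, or detected on 1 array alone, are not given over all genes, so nothing is read from them. The RNA is from whole tissue, in which fewer cells of a type and less RNA per cell cannot be told apart.

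The 7 myosin heavy chain genes form the series on which the fibre types are told apart, and their probes are shown because the finding rests on which of them gave a signal. The leading 30 of the 60 bases of each probe are given, 5′ to 3′. Capitals mark the longest run that also occurs in the *Myh4* probe, the first where runs are equally long. Positions of whole probes are on build mm9.
Myh3 (embryonic; chr11:66915724-66915783): cTGACAattctacttaatttccacgtatca
Myh2 (fast 2A; chr11:67010960-67011019): tgattctatTCCATCctgttgtaaggaaat
Myh1 (fast 2X; chr11:67038002-67038061): gatgagCAAAATGTGAagatctttgtcact
Myh4 (fast 2B; chr11:67073834-67073893): gaagaataatccatctttctgttgagaggt
Myh8 (neonatal; chr11:67121925-67121984): ccaggtcaacaagctgcgGGTGAagagccg
Myh7 (slow and heart; chr14:55589581-55589640): atgAGGAGtagctcttgtgctacccagctc
Myh6 (heart; chr14:55560774-55560833): gcacgacgagGAATAAcctctccagcagac

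The first 5 probes lie on the plus strand of chromosome 11 within 206 kb, in the order in which they are listed, and the last pair lie 28.8 kb apart on the minus strand of chromosome 14. The proteins are closely related, and the probes were compared only with each other. Whether a probe also binds the transcript of another heavy chain gene was not tested. Over the 21 pairs of probes, between 31 and 39 of the 60 bases had to be changed to turn one probe into the other, and the longest shared run was between 4 and 10 bases.

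*Myh4*, the myosin of the fastest fibres, gave 811 and 3.81 at ZT10 and ZT22 in sham+PSL mice, and 3.63 and 4.01 at those times in ADX+PSL mice. It was not well above background on the last 3. Sets of 4 levels below keep this order. It was at least 36.5-fold over every other array, the largest such value among the 27094 probes well above background on the sham+PSL ZT10 array. *Myh8*, the neonatal myosin, had levels of 990, 117, 148 and 91.1, well above background throughout. Its level in sham+PSL at ZT10 was 6.69-fold that of the next array, rank 9 among the same probes. The other 3 probes of *Myh8*, which lie further from the 3′ end of the transcript, were not well above background on any array, with levels up to 10.4.

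*Myh8* adjoins *Myh4* on one side in the cluster. The genes on the other side of *Myh4* did not share that signal. *Myh1*, the nearest of them and the myosin of 2X fibres, had levels of 14.4, 4.94, 4.10 and 4.83 and did not pass the background flag on any array. *Myh2*, of 2A fibres, had 16.2, 8.79, 11.1 and 14.7 and was likewise below that flag. *Myh3*, the embryonic myosin, had levels of 49.1, 57.9, 32.5 and 52.5, well above background on all arrays, with its second probe at 34.9, 41.6, 26.0 and 37.7. Both *Myh3* probes were lowest in ADX+PSL at ZT10, and neither was highest in sham+PSL at ZT10.

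On chromosome 14, *Myh7*, the myosin of slow fibres and ventricle, had levels of 1530, 1653, 1695 and 1317. These stayed within 1.29-fold of each other. *Myh6*, the atrial and adult mouse ventricular myosin, had levels of 75.2, 54.5, 368 and 45.3. Thus *Myh6* was 4.89-fold over the next array on the ADX+PSL ZT10 array, where its probe ranked 11 of 27649. Its other probe, near the 5′ end of the transcript, did not pass the background flag on any array.

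**Figure D1:**
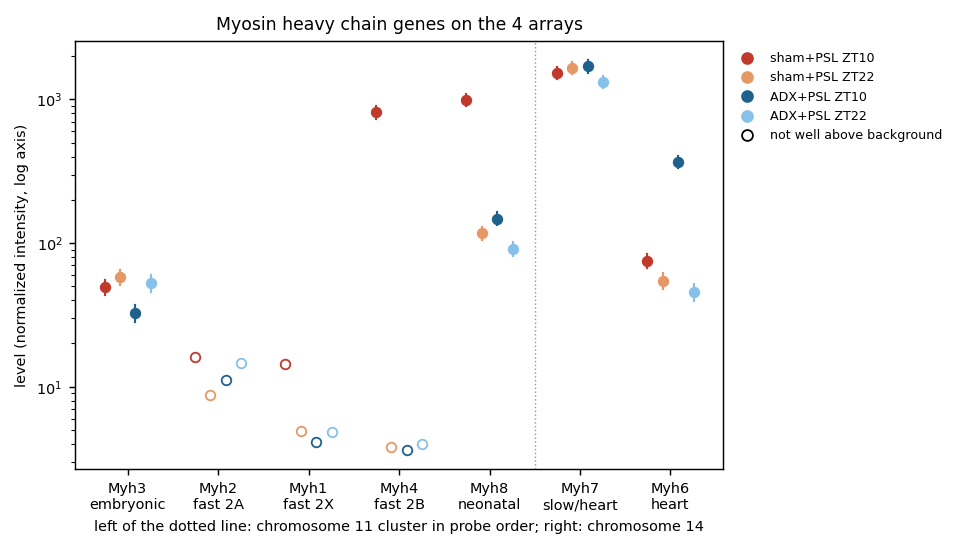
Levels of the 7 myosin heavy chain genes on the 4 arrays (normalized intensity, log axis; 1 point per array, brightest probe, bars 1 spot error, open points not well above background). Myh4 and Myh8 stand apart on the sham+PSL ZT10 array, Myh6 on the ADX+PSL ZT10 array, and Myh7 is within 1.29-fold on all 4.

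Counts of differences used the limits named in the study's methods. A probe was called higher when its Z-score, taken over the log2 ratios of all probes in that comparison, was at least 2 and its ratio at least 2. It was called lower when the Z-score was at most -2 and the ratio at most 0.5, and in both cases the brighter array had to be well above background. In the comparison of ZT10 with ZT22 within sham+PSL, 11 of 51 member probes were called higher, against 2.2% of all 27611 probes tested, and 0 were called lower, against 2.03%. The 11 probes belonged to *Ckm*, *Myh4*, *Myh8*, *Myl1*, *Myoz1*, *Sgca*, *Tcap*, *Tnnc2*, *Tnni2*, *Tnnt3* and *Ttn*. Since the genes were taken up for this difference, nothing is read from that count.

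Within ADX+PSL, 6 of 49 member probes were called higher at ZT10 (*Actc1*, *Myh6*, *Myl7*, *Tnni1*, *Tnnt2* and *Ttn*), against 2.09% of all probes. Lower at ZT10 were 3 (*Myl2*, *Neb* and *Sgca*), against 1.68%. Of these 9 genes, *Ttn* and *Sgca* were also called in sham+PSL, both as higher at ZT10. *Sgca* was called there on its second probe, the same that was called lower in ADX+PSL. The *Ttn* level in ADX+PSL at ZT10, 16.9, is below the lowest level flagged well above background on the ADX+PSL ZT22 array, 22.2. No fold between the ADX+PSL arrays can therefore be given for *Ttn*. The comparison at ZT10 shares 1 array with each of the comparisons over time. In it, 12 of 54 member probes were called lower in ADX+PSL than in sham+PSL, against 2.43%. They belonged to *Acta1*, *Ckm*, *Myh4*, *Myh8*, *Myl1*, *Myoz1*, *Neb*, *Sgca*, *Tnnc2*, *Tnni2*, *Tnnt3* and *Ttn*. Called higher in ADX+PSL were 4 of the 54, *Actc1*, *Myh6*, *Myl7* and *Tnnt2*, against 2.1%. At ZT22, 1 of 45 was called higher in ADX+PSL (*Sgca*, against 1.57%) and 1 lower (*Tnnt3*, against 2.09%). The *Tnnt3* level in ADX+PSL was not well above background, and its fold at ZT22 was at least 1.35. At both times *Sgca* was called on its second probe and not on its brightest.

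A stricter description asked which genes exceeded each of the other 3 arrays by 2-fold, with an array that was not well above background set at its lowest level so flagged. On the sham+PSL ZT10 array 8 genes did (*Acta1*, *Myh4*, *Myh8*, *Myl1*, *Tnnc2*, *Tnni2*, *Tnnt3* and *Ttn*), against 0.746% of all probes well above background there. On the ADX+PSL ZT10 array 2 genes did, *Myh6* and *Tnnt2*, against 0.495%. No member did so on the sham+PSL ZT22 array, against 0.815% of all probes, or on the ADX+PSL ZT22 array, against 0.787%. Among the 10 probes with the largest values on the sham+PSL ZT10 array, 5 were members (*Myh4*, *Tnnc2*, *Myl1*, *Tnnt3* and *Myh8*). The other 5 were *B930053N02Rik*, *Xlr5c*, *Xlr5a*, *Xlr5b* and *Smr2*, none of which is a muscle gene by name.

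**Figure D2:**
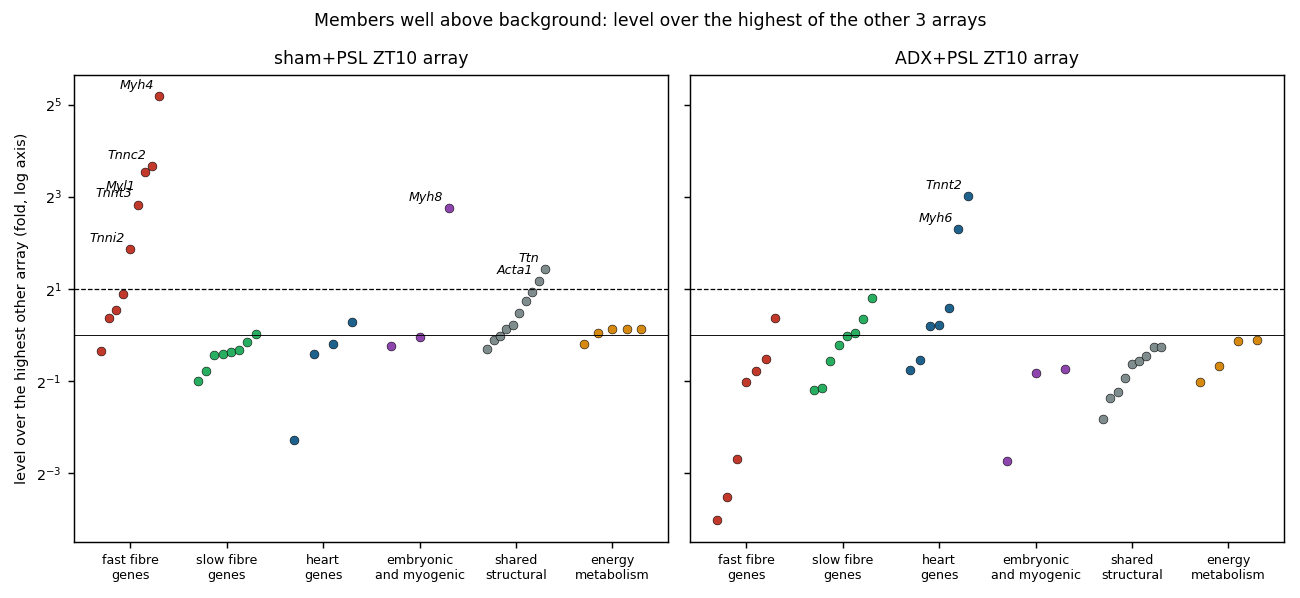
Level of each member over the highest of the other 3 arrays (fold, log axis; 1 point per gene well above background on the array named above the panel, by class; dashed line, 2-fold). In sham+PSL at ZT10, 8 genes lie above the line, 5 of them fast fibre genes, and in ADX+PSL at ZT10 the 2 genes above it are heart genes.

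Fast fibre genes were 12 of the 49. Of these, 9 were well above background on an array, 8 of them on both sham+PSL arrays, and all 9 had a higher level at ZT10 in sham+PSL mice, with a median log2 time ratio (ZT10 over ZT22) of 1.86. Over the 39 members measured on a sham+PSL array the median was 0.56, and over the 21025 gene names so measured it was 0.01. With genes seen on only 1 of the arrays set at their bound, the medians were 1.86 for the fast genes and 0.49 for the members. In ADX+PSL the median over 7 fast genes was 0.11. The summed levels of the 9 detected genes were 3025, 527, 467 and 437. Sums here and below include levels not well above background, and the brightest probes weigh most in them.

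Beside *Myh4*, the fast genes that led were parts of the thin filament and the myosin light chain. *Tnnc2*, the fast troponin C, had levels of 516, 29.8, 31.5 and 40.8. It was 12.6-fold over the next array, rank 2 of 27094. *Myl1*, the fast essential light chain, had levels of 405, 27.2, 35.0 and 32.5 and was 11.6-fold over the next array, rank 3. Both genes were therefore low but well above background on the remaining 3 arrays, unlike *Myh4*. The second *Myl1* probe, nearer the 5′ end, did not pass the background flag on any array, although its level in sham+PSL at ZT10 was 13.0 and the others were between 3.52 and 3.61.

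The fast troponins I and T lie next to each other, with probes 68.2 kb apart on chromosome 7 (mm9). *Tnni2*, the fast troponin I, had levels of 681, 188, 105 and 109, which is 3.63-fold between the times in sham+PSL, and it was above background throughout. *Tnnt3*, the fast troponin T, had levels of 213, 29.9, 8.70 and 3.83, the last pair not well above background, so that the lower bound of its fold between the operations at ZT10 was 16.6. The other *Tnnt3* probe had 23.3, 20.6, 10.9 and 9.59, of which those of the sham+PSL arrays were well above background, and it was called in no comparison between times.

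The remaining fast genes differed less. *Actn3*, the Z-disc actinin of fast fibres, had levels of 93.2, 50.8, 46.0 and 39.1. *Mybpc2*, the fast myosin-binding protein C, had 96.1, 57.4, 55.9 and 75.2, and *Atp2a1*, the calcium pump of fast fibres, had 148, 98.2, 103 and 94.0. All were highest in sham+PSL at ZT10, at 1.28-fold to 1.83-fold of the next array, and none was called. *Casq1*, the calcium store protein, was highest in ADX+PSL at ZT10, with 61.4, 41.7, 78.5 and 38.6. *Mylpf*, the regulatory light chain of fast fibres, had levels between 3.53 and 3.60 on the 4 arrays and was not well above background on any.

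Slow fibre genes, 8 in number, were well above background on every array, and their median log2 ratio between the times in sham+PSL was 0.05. None was called in that comparison. *Tnnt1*, the slow troponin T, went the other way from the fast genes, with levels of 588, 1178, 525 and 765, and its second probe had 46.0, 92.6, 41.9 and 49. Both probes were highest on the sham+PSL ZT22 array, at a ratio of 0.50 between ZT10 and ZT22 and a Z-score of -1.68 for the brightest, short of the limit.

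*Tnnc1*, the slow and cardiac troponin C, had levels of 40.0, 40.2, 46.7 and 54.3, and thus no excess in sham+PSL at ZT10, unlike its fast counterpart. *Tnni1*, the slow troponin I, had 42.4, 35.5, 73.4 and 29.3 and was called higher at ZT10 in ADX+PSL, at 2.50-fold. *Myl2*, the slow and ventricular regulatory light chain, had 71.7, 63.1, 41.7 and 95.8 and was called lower in the same comparison, at 2.29-fold. These slow genes hence moved in opposite directions between the ADX+PSL arrays.

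Of the other slow genes, *Casq2*, the cardiac and slow calsequestrin, had levels of 60.3, 26.7, 59.3 and 59.3, with the low value on the sham+PSL ZT22 array. *Myl3*, the slow and ventricular essential light chain, ranged from 54.8 to 95.4. *Mybpc1*, the slow myosin-binding protein C, ranged from 125 to 170. Of the 8 slow genes, 1 was highest on the sham+PSL ZT10 array and 2 on the sham+PSL ZT22 array, against 3 and 2 on the ADX+PSL ZT10 and ZT22 arrays.

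**Figure D3:**
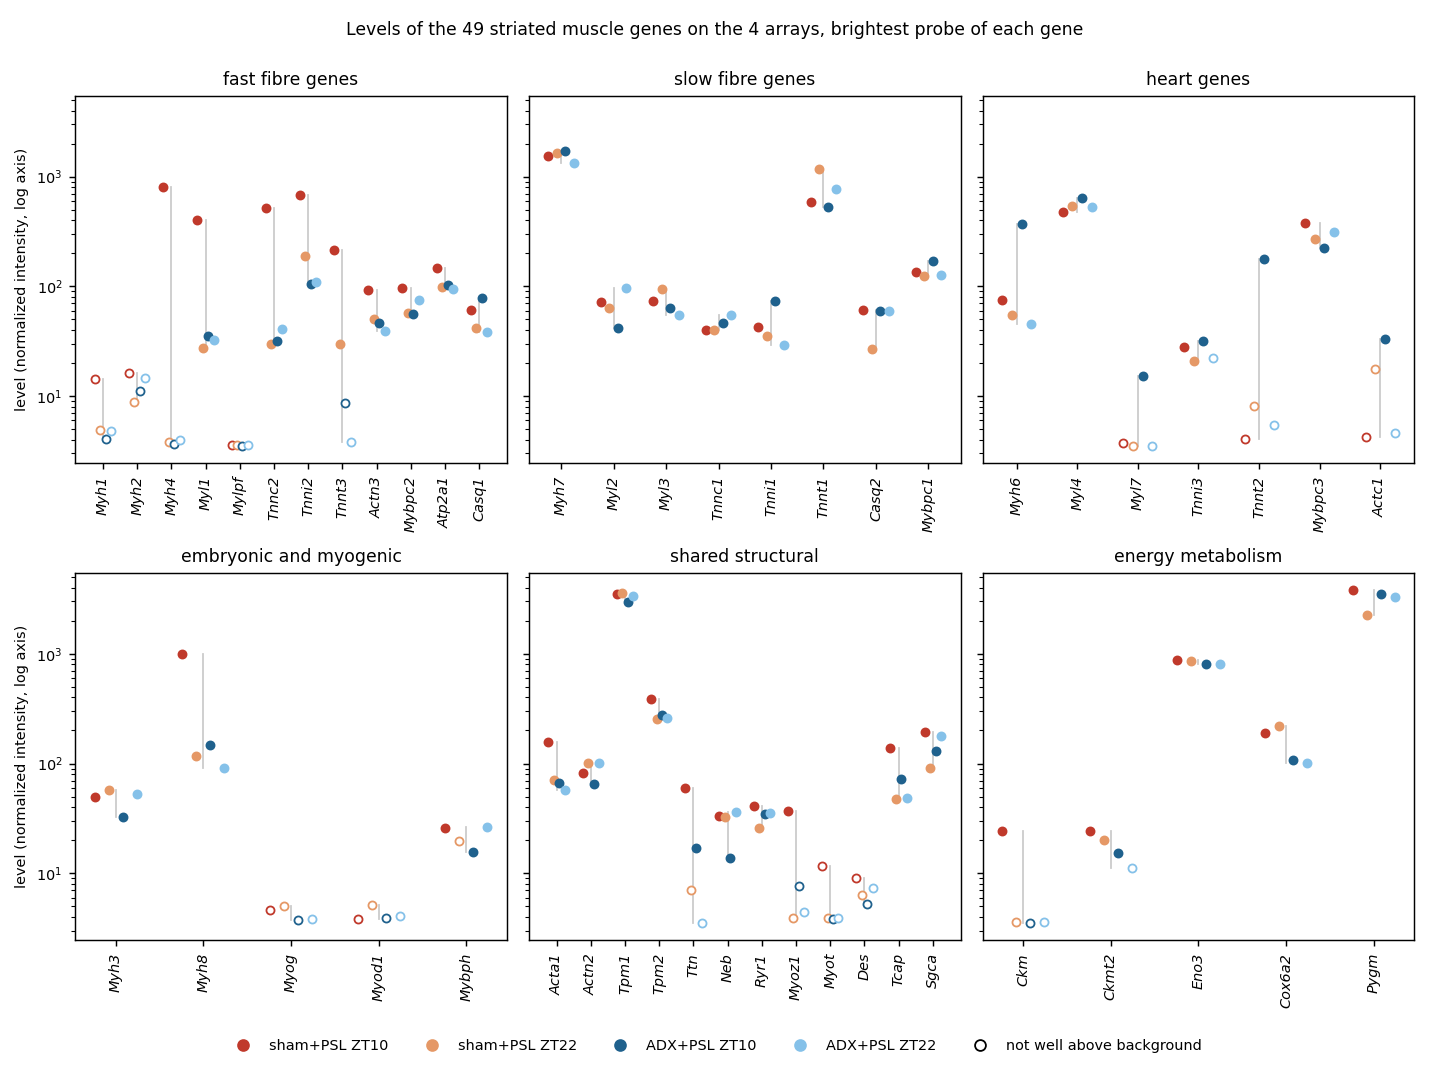
Levels of all 49 genes on the 4 arrays (normalized intensity, log axis; brightest probe, open points not well above background, grey lines join the lowest and highest level of a gene), by class. Fast genes such as Myh4, Tnnc2 and Myl1 are highest in sham+PSL at ZT10, slow genes are spread over the arrays, and among the heart genes Myh6 and Tnnt2 stand apart in ADX+PSL at ZT10.

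The heart genes *Myh6* and *Tnnt2* had their excess on another array, ADX+PSL at ZT10. Of the 7 heart genes, *Tnnt2*, *Actc1* and *Myl7* were well above background there alone, so that their count as detected and their highest level rest on the same array. The other 4 were *Myh6*, *Tnni3*, *Myl4* and *Mybpc3*, of which *Tnni3* and *Myl4* were within 1.16-fold of the next array. The summed levels of the 7 were 965, 916, 1481 and 917. The median log2 time ratio in ADX+PSL was 2.12 over the 7 genes, but 0.52 with the 4 genes seen on 1 of the arrays at their bound.

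*Tnnt2*, the cardiac troponin T, had levels of 4.05, 8.18, 179 and 5.47, well above background only in ADX+PSL at ZT10. It was at least 8.06-fold over every other array, rank 2 of 27649. Its single probe spans chr1:137747976-137748288 (mm9), next to *Tnni1*, whose probe is 41.8 kb away and which was also highest on that array. The remaining such pair, *Tnni3* and *Tnnt1*, lies 15.7 kb apart on chromosome 7 and was highest on different arrays, *Tnni3* in ADX+PSL at ZT10 and *Tnnt1* in sham+PSL at ZT22.

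A further pair of heart genes, *Actc1* and *Myl7*, was seen on that array alone, close to the detection limit. *Actc1*, the cardiac actin, had levels of 4.27, 17.5, 33.1 and 4.58, and was at least 1.49-fold higher in ADX+PSL at ZT10 than at ZT22. *Myl7*, the atrial regulatory light chain, had 3.70, 3.48, 15.1 and 3.47. It was called by the limits, but 15.1 is below the lowest level flagged well above background in ADX+PSL at ZT22, 22.2, so that no fold between those arrays can be given.

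*Tnni3*, the cardiac troponin I, had 27.9, 20.7, 31.9 and 22.1, the last not well above background. *Myl4*, the atrial and embryonic light chain, had 474, 543, 632 and 524, which is 1.16-fold over the next array. *Mybpc3*, the cardiac myosin-binding protein C, was lowest in ADX+PSL at ZT10, with 376, 268, 222 and 312. The heart group was therefore not uniform, and its excess in ADX+PSL at ZT10 by 2-fold was that of *Myh6* and *Tnnt2*.

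Of the embryonic and myogenic genes other than *Myh3* and *Myh8*, the muscle-determining factors *Myod1* and *Myog* were not well above background on any array, although each was printed 10 times. *Myod1* had levels of 3.86, 5.09, 3.90 and 4.09. *Myog* had 4.62, 5.02, 3.72 and 3.86. *Mybph*, a myosin-binding protein of immature and fast fibres, had 25.7, 19.9, 15.6 and 26.4 and was below the flag in sham+PSL at ZT22. *Myh8* was therefore the only gene of this group with its highest level in sham+PSL at ZT10.

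Among the 12 structural genes shared by several fibre types, 10 were detected, and 8 of the 10 had a higher level at ZT10 in sham+PSL mice, with a median log2 time ratio of 0.88 (0.85 at the bound). *Acta1*, the skeletal actin, had levels of 158, 70.5, 66.4 and 56.9. It was 2.24-fold over the next array, with a Z-score of 1.95 between the times in sham+PSL, just short of the limit. *Ttn*, the titin that spans the sarcomere from Z-disc to M-line, had 59.9, 7.04, 16.9 and 3.54, well above background at ZT10 only. The other 3 *Ttn* probes, all nearer the 5′ end of its very long transcript, were not well above background on any array.

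*Tcap*, the titin cap, had levels of 139, 47.8, 72.9 and 48.9 and was higher at ZT10 in sham+PSL by 2.91-fold. *Myoz1*, a Z-disc protein of fast fibres, had 37.1 in sham+PSL at ZT10 and was not well above background elsewhere, at 3.91, 7.63 and 4.44, which gives at least 2.01-fold between the times in sham+PSL. *Sgca*, the alpha-sarcoglycan of the muscle membrane, had 194, 91.6, 130 and 178 on its brightest probe and 103, 37.4, 45.7 and 111 on the other. On both probes the ZT10 level exceeded the ZT22 level in sham+PSL, and the reverse held in ADX+PSL.

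*Neb*, the thin filament ruler nebulin, had 33.2, 32.5, 13.8 and 35.8, with the low value in ADX+PSL at ZT10. A second *Neb* probe had 25.9, 17.1, 15.2 and 8.82, and the remaining *Neb* probe did not pass the background flag on any array. *Ryr1*, the calcium release channel, had 41.3, 25.7, 34.6 and 35.6. *Tpm2*, the beta-tropomyosin, had 386, 254, 279 and 262, and its other probe had 325, 221, 255 and 236, so that both were highest in sham+PSL at ZT10.

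*Tpm1*, a tropomyosin with forms in many cell types, had 6 probes, all well above background on every array. The brightest had 3507, 3578, 2964 and 3336, and none of the 6 was called in any comparison. *Actn2*, the Z-disc actinin also known from neurons, ranged from 65.3 to 102. *Des*, the desmin of the intermediate filaments, and *Myot*, the myotilin of the Z-disc, were not well above background on any array, with levels up to 8.99 and 11.7 in sham+PSL at ZT10.

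Of the enzymes of muscle energy supply, *Ckm*, the creatine kinase that is among the most abundant transcripts of skeletal muscle, had levels of 24.2, 3.62, 3.54 and 3.59, well above background only in sham+PSL at ZT10. It was called, and the lower bound of its fold between the times in sham+PSL was 1.32. *Ckmt2*, the mitochondrial creatine kinase, had 24.4, 20.1, 15.2 and 11.1, the last not well above background. *Eno3*, the muscle enolase, differed little, with 886, 859, 816 and 815.

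*Cox6a2*, the muscle and heart subunit of cytochrome oxidase, followed the operation rather than the time, with 191 and 218 in sham+PSL and 108 and 102 in ADX+PSL, and was not called. *Pygm*, the muscle glycogen phosphorylase, which is also present in brain, had 3836, 2242, 3499 and 3296, lowest in sham+PSL at ZT22. Across the 5 enzymes the median log2 ratio between the times in sham+PSL was 0.28.

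**Figure D4:**
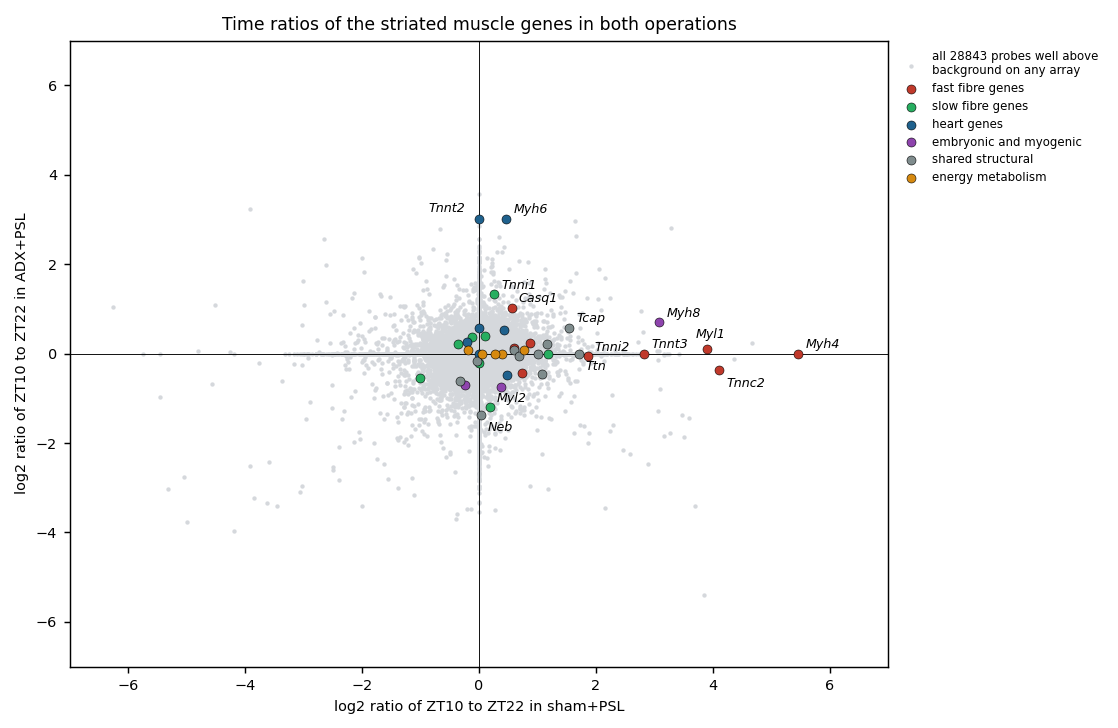
Log2 time ratio (ZT10 over ZT22) within sham+PSL (x axis) against that within ADX+PSL (y axis) for the 42 detected members, coloured by class, over all 28843 probes well above background on any array in grey (1 lies outside the axes). A ratio with 1 array not well above background is drawn at its bound, and with neither, or with no fold to give, at 0. Myh4, Tnnc2 and Myl1 lie to the right near 0 on the y axis, Myh8 lies at 0.70 and Casq1 at 1.02 on that axis, and Tnnt2 and Myh6 lie at the top near 0 on the x axis.

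Sequence upstream of these genes was examined because several of them differed together. RefSeq windows of 300 bases (250 before to 50 after the start, GRCm38.p6) were at hand for 40 of the 49 genes, 44 windows in all. The letters CANNTG, the core of the E-box that myogenic factors bind, were found in 40 of the 44 windows on either strand, against 72.3% of 32851 windows of all genes. TATAAA, the TATA box, was in 12 of the 44 (27.3%), against 13.6%. CTA and TAG separated by any 4 bases is a simplified form of the motif of the muscle factor MEF2. It was in 3 windows (6.82%, *Des*, *Mybpc3* and *Ttn*), against 3.69%. GNACA and TGTNC separated by 3 bases, a palindromic form of the glucocorticoid response element, was in 0, against 0.475%. No match says only that these letters are not in these windows.

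The 120 bases before the start are printed for the leading fast gene and the leading heavy chain of the heart group, with CANNTG and TATAAA on either strand in capitals.
Myh4 (chr11:67237692-67237811, plus strand): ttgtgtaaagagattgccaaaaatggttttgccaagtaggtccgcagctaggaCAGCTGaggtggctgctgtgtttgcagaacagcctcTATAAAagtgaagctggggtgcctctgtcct
Myh6 (chr14:54966608-54966727, minus strand): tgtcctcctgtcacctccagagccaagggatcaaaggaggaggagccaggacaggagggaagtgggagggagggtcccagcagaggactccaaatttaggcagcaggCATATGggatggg
Of the 8 genes that exceeded each other array by 2-fold in sham+PSL at ZT10, windows were at hand for 6, and TATAAA was in 4 of them (*Acta1*, *Myh4*, *Myh8* and *Myl1*), with CANNTG in all 6.

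Other striated muscle genes were described from a separate list of 58 genes, of which 55 had a probe and 33 were well above background on an array. Their median log2 ratio between the times in sham+PSL was -0.00 over 31 genes, and 0 of the 33 exceeded each other array by 2-fold in sham+PSL at ZT10. *Mb*, the myoglobin, had levels of 27.8, 15.2, 17.4 and 16.2, and *Myom1*, of the M-line, had 33.9, 12.5, 16.0 and 15.8. Both were highest in sham+PSL at ZT10 and were well above background at ZT10 alone. They are examples from the list, and most of the list did not share their order. Of the 33, 9 were highest on the sham+PSL ZT10 array and 10 on the sham+PSL ZT22 array. On the ADX+PSL ZT10 and ZT22 arrays, 11 and 3 were highest. Between the times in sham+PSL, 1 was called higher (*Myom1*), against 2.2% of all probes, and 1 lower (*Myom2*), against 2.03%. *Cav3*, *Trdn*, *Chrna1*, *Myf6* and *Pax7* were among 22 genes not well above background on any array.

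On the ADX+PSL ZT10 array, *Nrap*, a protein of the heart's intercalated disc and of the myotendinous junction, had 7579, against 2726, 2710 and 2948 on the others in their order. *Itgb1bp2*, the melusin of striated muscle, was well above background on that array only, with 22.8 against 9.08, 5.93 and 3.55. With the dim arrays at their lowest flagged level, the lower bound of its fold over every other array was 1.03. *Myom2* had its own pattern, with 33.6, 171, 17.6 and 9.43, highest in sham+PSL at ZT22. *Ankrd1*, a cardiac ankyrin repeat protein, was lowest in ADX+PSL at ZT10, with 70.9, 108, 19.6 and 84.8. It was called lower there both against ZT22, by 4.33-fold, and against sham+PSL, by 3.62-fold. These 4 genes were chosen after their values were seen.

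Genes of other cells also differed between the arrays, and their part in the muscle values was not tested. Red blood cell genes, 6 of 6, were called higher at ZT10 in sham+PSL, against 2.2% of all probes. Their summed levels were 135912, 18767, 95075 and 89810, low on the sham+PSL ZT22 array. Meningeal fibroblast genes were called lower in ADX+PSL at both times, 12 of 12 at ZT10, against 2.43%, and 10 of 12 at ZT22, against 2.09%. Their summed levels were 19945, 17768, 6157 and 6293, and 0 of them were called over time in either operation. *Prx*, the periaxin of Schwann cells, had 466, 247, 40.9 and 36.3. The 4 Schwann cell genes with a probe had summed levels of 12521, 15328, 11953 and 13576, a different order. Gene by gene, their median log2 ratio of ADX+PSL to sham+PSL at ZT10 was -1.07, and 1 of the 4 was higher in ADX+PSL. At ZT10, 2 were called lower in ADX+PSL, against 2.43% of all probes, and at ZT22 1 was, against 2.09%. Of these 4, 2 were highest on the sham+PSL ZT10 array and 2 on the sham+PSL ZT22 array. Smooth muscle and pericyte genes had summed levels of 4736, 3883, 3816 and 4448, and 11 of 12 were detected. *Acta2*, the smooth muscle actin, had 543, 286, 258 and 289, without a call. Of the 11, 5 were highest in sham+PSL at ZT10 and 2 on each other array. Among them, 1 was called lower at ZT10 in sham+PSL, against 2.03% of all probes. Another count of 1 was lower in ADX+PSL at ZT22, against 2.09%. Of 6 adipocyte genes, the 2 detected were *Cfd*, with 16.1, 11.4, 31.9 and 7.88, and *Fabp4*, with 20.04, 4.03, 5.41 and 13.6, and *Adipoq* did not pass the background flag on any array.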

How the data were processed

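Total RNA of spinal cord slices was labelled with Cy3 and hybridized by the authors to a 44K mouse array of 60-base probes (1 array per condition). The authors deposited the spot intensities and flags of Agilent Feature Extraction (version 9.5.1.1 per the labels, 10.7.1.1 per the file headers) and a table of linear intensities, normalized by quantiles across the 4 arrays, 1 value per probe. This table gave the levels. The flags gave detection, by majority of spots for the 399 probes printed 10 times, and the software's signal error gave the spot error. The labels and the methods name different reagents for RNA extraction. Control spots (1377 of the 44397 on an array) were left out. The number of arrays limits the precision.

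Members were matched by the gene name in the array files, and 64 of 72 probes matched a RefSeq symbol, always the same. Ratios, Z-scores over all probes, folds and bounds were computed with Python 3.11.15, numpy 2.4.6 and pandas 2.3.3, and alternative normalizations of the deposited intensity with limma 3.58.1 in R 4.3.3. The calls were checked on simulated data. The members and lists were chosen with earlier results of these data known. Values on all arrays are given for every member called in any comparison and for 24 members set by name, and the others are given by their values or range. No sequence is shown for 9 genes without a window, and no protein sequence was used here. The Schwann cell list is not reported here in full.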

Additional observations from a re-analysis of the deposited data

Results flagged for a closer look

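The log2 ratio of ZT10 to ZT22 had opposite signs in sham+PSL and ADX+PSL, each beyond 2 spot errors, for 3 probes of 2 members. With 1 array per condition the difference between the operations was not tested. For *Mybpc3*, the cardiac myosin-binding protein C, the ratio in sham+PSL was 0.49 and that in ADX+PSL was -0.49, a difference of 0.974. For *Sgca*, the alpha-sarcoglycan, it was 1.08 and -0.45 on the brightest probe, a difference of 1.54, and 1.47 and -1.28 on the other probe, a difference of 2.75.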

How the results depend on the processing

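The levels rest on the authors' normalization, and 1 array per condition leaves the spread between mice unknown. Signals near background limit the folds of dim genes. Of 106 comparisons of a count or median with an alternative, 66 stayed within 1.5 times of the reported value, or, for the median, within the spot error. The higher calls over time in sham+PSL, 11 probes, became 6 with normexp background correction and 6 with uncorrected mean signals, 21 with a ratio of 1.5 as the sole limit, and 7 with both arrays required well above background. The lower calls, 0, became 2 with a ratio of 2 or of 1.5 as the sole limit, and 1 with Z-scores taken within 20 bins of level or with no background filter. In ADX+PSL the 6 higher calls became 2 with normexp, 2 with mean signals, 2 with both arrays required and 10 with the limit of 1.5. The 3 lower calls became 1 with a 75th percentile shift or no normalization, 0 with normexp or mean signals and 6 with the limit of 1.5. At ZT10, the 12 calls lower in ADX+PSL became 6 with normexp or mean signals and 23 with the limit of 1.5, and the 4 higher ones became 2 with normexp or mean signals and 1 with both arrays required. At ZT22, the 1 lower call became 2 with the percentile shift, no normalization, binned Z-scores or no filter, 3 with the ratio limit of 2 alone, 8 with 1.5, and 0 with normexp, mean signals or both arrays required. The 1 higher call became 0 with normexp or mean signals, 2 with the ratio limit of 2 alone or no filter, and 4 with 1.5. The median log2 time ratio of the members in sham+PSL, 0.56, became 0.30 with normexp and 0.24 with mean signals. By construction, mean signals keep the background, and normexp was run with an added offset, which draws ratios towards 1. The 8 genes over each other array by 2-fold became 5 when all 4 arrays had to be well above background. *Myh4*, *Tnnt3* and *Ttn* then drop out. The count became 6 with normexp or mean signals and 12 with no background filter. *Acta1* fell to 1.57-fold and *Ttn* to 1.47-fold at the lowest of the alternative level tables. Under 5 alternative level tables, the lowest fold over every other array was 9.89 for *Myh4* and 5.36 for *Tnnc2* in sham+PSL at ZT10, and 3.02 for *Myh6* and 2.54 for *Tnnt2* in ADX+PSL at ZT10. These tables for the ADX+PSL ZT10 array were added after seeing the data. Of 15 other probes of named members, 6 had a time ratio of the opposite sign to the brightest probe in sham+PSL, none of them well above background on any array. For members called in that comparison these were *Myh8*, with -0.0095 and -0.017, and *Ttn*, with -0.068, and for the others *Myh6*, with -0.15, *Myl2*, with -0.014, and *Neb*, with -0.17. No paired analysis was possible because each condition had 1 array.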
